A study of Homo sapiens with 12 samples.

Results

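The HIF hypoxia response genes described here are HIF1A, EPAS1, EGLN1, EGLN3, ADM, BNIP3, NDRG1, P4HA1, ANKRD37 and CA12. They were picked by gene symbol, and each of the 10 symbols matched 1 gene among the 58735 in the count table. RNA was sequenced from tumour-associated macrophages (TAMs) made in culture: THP-1, a human acute monocytic leukaemia cell line, was differentiated with the phorbol ester PMA and kept across a porous membrane from AsPC-1, a human pancreatic cancer cell line. The 12 libraries form 4 groups of 3. In the control group the AsPC-1 cells carried an empty vector, and in the OE-MMP28 group they overexpressed the matrix metalloproteinase MMP28. The anti-IL-8 and anti-VEGFA groups had OE-MMP28 AsPC-1 cells plus a neutralizing antibody against that cytokine. All 4 groups share PMA and the AsPC-1 coculture, and the labels list no group with an isotype antibody. MMP28 was raised in the AsPC-1 cells, which are not the cells these 12 libraries were made from, so its count is no check of the labels. The labels do not say that the 3 libraries of a group came from separate cultures, so the p-values measure only the spread between these libraries, which may be technical.

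Hypoxia-inducible factors (HIFs) are the transcription factors by which cells respond to low oxygen. In normal oxygen, prolyl hydroxylases of the EGLN family mark the alpha subunits, encoded by HIF1A and EPAS1, for destruction through the VHL ubiquitin ligase. When oxygen falls the subunits persist, pair with ARNT and switch on genes for glycolysis, blood vessel growth and mitochondrial turnover, and the factors are also known to respond to inflammatory signals in macrophages. HIF control acts largely on the protein, and only RNA was measured here.

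HIFs bind DNA at hypoxia response elements, whose core is written ACGTG or GCGTG. RefSeq promoter entries on GRCh38.p14 were matched for 9 of the 10 members, and the 250 bases before each start were searched for both cores on both strands. ACGTG was present for 4 members (EGLN1, ANKRD37, P4HA1 and BNIP3), and 18.5% of all 35116 promoters hold it in a stretch of the same length. GCGTG was present for 5 members, against 32.2% of all promoters. The ACGTG matches are shown because they are the core of the elements that give these genes their group name. Each line gives the gene, the strand and the position, with the ACGTG core in capitals on whichever strand it lies. Matches to GCGTG are not marked.
EGLN1 (chr1:231422288-231422312, minus strand): gggccgtggtgtACGTGcagagcgc
ANKRD37 (chr4:185396676-185396705, plus strand): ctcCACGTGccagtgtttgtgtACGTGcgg
P4HA1 (chr10:73096936-73096964, minus strand): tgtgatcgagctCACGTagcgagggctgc
BNIP3 (chr10:131982040-131982069, minus strand): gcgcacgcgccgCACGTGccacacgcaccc
The core of EGLN1 begins 13 bases before its RefSeq start, which lies inside the annotated gene. The windows shown for EGLN1, ANKRD37 and P4HA1 lie within their annotated genes, and that of BNIP3 lies before its gene. ANKRD37 holds a pair of cores, and its first, like that of BNIP3, reads CACGTG, which holds the core on both strands and is also the E-box bound by other factors. In P4HA1 the core is on the opposite strand. HIF1A, EPAS1, ADM and CA12 had GCGTG and not ACGTG, and EGLN3 had neither in this window. A match is a run of letters and no measure of binding, and none was measured here.

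Library totals ran from 15852346 to 18701195 counts, and mitochondrial genes took 6.92% to 17.8% of them, most in anti-VEGFA replicate 2. Of 12 macrophage markers 11 passed the filter on low counts, and their summed level was 2675 to 2987 CPM in control, 2875 to 4335 in OE-MMP28, 3758 to 4440 in anti-IL-8 and 3613 to 3895 in anti-VEGFA. CPM are counts relative to the library total, scaled by TMM. The exception was CD68, with at most 5 counts, a gene that overlaps others in the annotation. Of 12 epithelial markers of AsPC-1 3 passed the filter, EPCAM had 0 counts in every library, and their sum was 3.13 to 6.39 CPM, so few carcinoma transcripts were counted. OE-MMP28 replicate 3 lay apart from the other 2 of its group in several members, and member calls that change without it are given both ways. It was singled out from the values of the members. Over all genes tested, its Pearson's r of log2 CPM with the mean of its group mates was 0.9829, beside 0.9832 for OE-MMP28 replicate 2. The lowest such r of the 12 libraries was 0.9797, in anti-VEGFA replicate 2.

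All 10 members passed the filter. Per kilobase of gene model, in the deposited FPKM, HIF1A was the highest, with a mean of 45.7 over the 12 libraries, followed by NDRG1 at 28.03. A middle group held ADM at 14.8 FPKM, P4HA1 at 13.4, EGLN1 at 12.1 and EPAS1 at 7.01. BNIP3 at 1.89 FPKM, ANKRD37 at 1.09, CA12 at 0.702 and EGLN3 at 0.104 were low. EGLN3 had 4 to 22 counts in a library and ANKRD37 34 to 64, so their fold changes are imprecise.

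**Figure D1:**
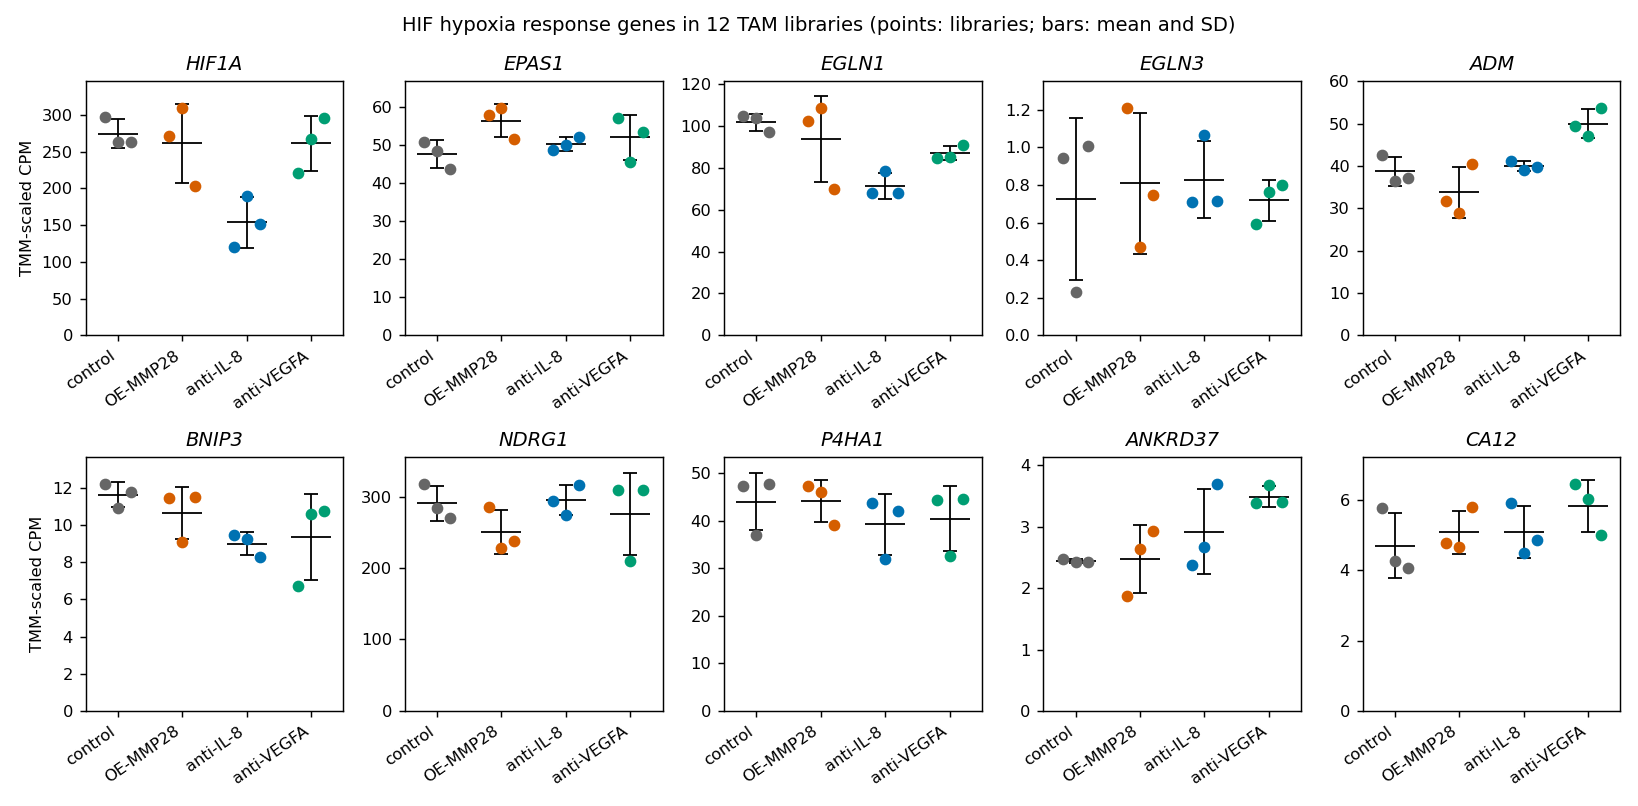
Level of each member in TMM-scaled CPM (vertical axes, each from 0) in the 4 groups, with 1 point per library and bars for the mean and SD of 3 libraries. HIF1A lies lowest in anti-IL-8 and ADM highest in anti-VEGFA, and in neither case do the 3 libraries overlap those of another group. The share of all genes separated in this way was not counted.

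HIF1A lies on the plus strand of chromosome 14, at 61695513 to 61748259 (GRCh38, with which the coordinates of all 10 members in the table match GENCODE). HIF1A RNA, which encodes the oxygen-regulated subunit of HIF-1, was lower with anti-IL-8 than in the other 3 groups. Its level was 297, 263 and 263 CPM in the control libraries, 271, 309 and 203 in OE-MMP28, 121, 190 and 151 in anti-IL-8 and 221, 267 and 296 in anti-VEGFA. The 3 anti-IL-8 libraries lay below all 9 others, which overlapped one another. How many of all genes have groups that separate in this way was not counted, here or for the members below. The group means were 274 ± 19.4 CPM in control, 261 ± 53.5 in OE-MMP28, 154 ± 34.6 in anti-IL-8 and 261 ± 37.4 in anti-VEGFA (SD, n = 3).

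Against control, HIF1A fell with anti-IL-8 by 0.83 on the log2 scale (SE 0.17, 95% interval -1.20 to -0.47), a level 0.561 times that of control. This passed edgeR's quasi-likelihood test with an adjusted p of 0.0041, and it also passed in 12 of 12 fits with 1 library left out and in 10 of 10 with another setting. Against OE-MMP28, the group that differs from it only by the antibody, the difference was -0.76 (SE 0.17, 95% interval -1.13 to -0.40). That did not pass, with an adjusted p of 0.063 in edgeR and an unadjusted p of 0.00036. No gene passed in that comparison: 0.063 was the smallest adjusted p among all 16046 genes, and HIF1A was in position 63 by p. DESeq2 gave 0.0072 for HIF1A, the fit with the replicate number as a block gave an adjusted p of 0.048, and edgeR without OE-MMP28 replicate 3, the lowest of its group, gave a difference of -0.90 with an adjusted p of 0.0058. Over the 12 fits with 1 library left out, the difference from OE-MMP28 ran from -0.94 to -0.59 and the adjusted p from 0.0058 to 0.28. Among all genes, 2.65% had a lower fold change in that comparison. When the genes were split by length into 10 classes of like size, 2.31% of the 1605 in the class of HIF1A did.

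The level with anti-VEGFA was 0.76 above that with anti-IL-8 on the log2 scale (SE 0.17), with an adjusted p of 0.069 in edgeR. It passed without OE-MMP28 replicate 2 (0.043) or 3 (0.038). OE-MMP28 itself differed from control by -0.07 (95% interval -0.43 to 0.29), and anti-VEGFA from OE-MMP28 by 0.0014 (95% interval -0.36 to 0.36). The anti-IL-8 libraries with the least HIF1A, replicates 1 and 3, also had the highest summed macrophage markers, at 4440 and 4393 CPM. OE-MMP28 replicate 3, at 4335 CPM of those markers, had the least HIF1A of its group. The part of this in the HIF1A difference was not tested, and in bulk RNA a smaller share of cells with the transcript and less of it per cell cannot be told apart.

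EPAS1 encodes the alpha subunit of HIF-2. Its level was 50.9, 48.4 and 43.8 CPM in control, 58.0, 59.7 and 51.6 in OE-MMP28, 48.8, 49.99 and 52.2 in anti-IL-8 and 57.3, 45.5 and 53.4 in anti-VEGFA. The OE-MMP28 libraries lay above those of control by a small margin, and the antibody groups overlapped both. OE-MMP28 against control gave 0.24 on the log2 scale (SE 0.12, 95% interval -0.02 to 0.50) with an adjusted p of 0.39, and anti-IL-8 against OE-MMP28 gave -0.17 (95% interval -0.42 to 0.09), so a fall of the size seen in HIF1A lies outside the interval of EPAS1.

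EGLN1 lies on the minus strand of chromosome 1, at 231363751 to 231425044. The gene, for the main prolyl hydroxylase that marks HIF alpha subunits for destruction in normal oxygen, was also lower with anti-IL-8 than in control. Its level was 105, 104 and 97.3 CPM in control, 103, 109 and 70.2 in OE-MMP28, 67.9, 78.8 and 68.0 in anti-IL-8 and 85.0, 85.4 and 91.3 in anti-VEGFA. The anti-IL-8 libraries lay below those of control and anti-VEGFA, and OE-MMP28 replicate 3 fell among them. Against control the fall was 0.51 on the log2 scale (SE 0.14, 95% interval -0.81 to -0.21), with an adjusted p of 0.020 in edgeR. It kept its direction but not the call when any 1 control library or anti-IL-8 replicate 1 or 3 was left out, with adjusted p-values of 0.065, 0.072 and 0.051 without control replicates 1, 2 and 3, and 0.109 and 0.094 without those of anti-IL-8.

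Against OE-MMP28, EGLN1 differed by -0.39 (SE 0.14, 95% interval -0.69 to -0.09) with an adjusted p of 0.093. Without OE-MMP28 replicate 3 the difference was -0.55 with an adjusted p of 0.0065. EGLN1 with anti-VEGFA lay between, at 87.2 ± 3.51 CPM (SD, n = 3), which differed from OE-MMP28 by -0.10 (95% interval -0.40 to 0.20).

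EGLN3, a hydroxylase of the same family that is itself a HIF target, was near the limit of detection. It ran from 0.23 to 1.21 CPM over the 12 libraries, where 3 counts amount to 0.160 to 0.189 CPM. All 4 groups overlapped, and the widest interval, that of anti-VEGFA against control, ran from -1.06 to 1.04 on the log2 scale, so a change of 2-fold in either direction was hardly detectable at this depth. Its gene model overlaps SPTSSA on the same strand, and reads in the shared part may have gone uncounted or to the other gene.

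ADM, on the plus strand of chromosome 11 at 10304680 to 10307397, encodes adrenomedullin, a secreted peptide that widens blood vessels, and is among the best known HIF targets. Its level was 42.6, 36.3 and 37.1 CPM in control, 31.8, 28.96 and 40.5 in OE-MMP28, 41.1, 39.0 and 39.9 in anti-IL-8 and 49.3, 47.0 and 53.6 in anti-VEGFA. The 3 anti-VEGFA libraries lay above all 9 others, and OE-MMP28 was lowest but for its replicate 3. The group means were 38.7 ± 3.44, 33.7 ± 6.00, 39.99 ± 1.09 and 49.98 ± 3.37 CPM in that order (SD, n = 3). Across the 4 groups ADM passed edgeR's joint test with an adjusted p of 0.035. The call was kept in 4 of 12 fits with 1 library left out (without OE-MMP28 replicate 2 or 3, anti-IL-8 replicate 2 or anti-VEGFA replicate 2) and lost in the other 8, and the adjusted p ran from 0.0038 to 0.11.

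Anti-VEGFA against OE-MMP28 gave 0.57 on the log2 scale for ADM (SE 0.14, 95% interval 0.28 to 0.85), 1.48 times the level. The adjusted p of 0.069 in edgeR missed the threshold. DESeq2 gave 0.011, and edgeR without OE-MMP28 replicate 3 gave a difference of 0.72 with an adjusted p of 0.014. Against control the difference was 0.37 (SE 0.13) with an adjusted p of 0.085 in edgeR, or 0.045 and 0.032 without OE-MMP28 replicate 2 or 3. The fit of anti-VEGFA and control alone gave 0.043, beside 13.6% of all genes called in that fit. Against anti-IL-8 the difference was 0.32 (SE 0.13) with an adjusted p of 0.28. Anti-IL-8 against OE-MMP28 gave 0.25 (95% interval -0.04 to 0.53), and 0.41 with an adjusted p of 0.028 without OE-MMP28 replicate 3. Thus ADM and HIF1A were not ordered alike over the groups: ADM was not lowest where HIF1A was lowest.

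ANKRD37, a small ankyrin repeat protein whose gene is a direct HIF-1 target, had its highest mean in anti-VEGFA, as ADM did, at a much lower level. Its level was 2.47, 2.42 and 2.42 CPM in control, 1.87, 2.63 and 2.93 in OE-MMP28, 2.38, 2.67 and 3.69 in anti-IL-8 and 3.38, 3.68 and 3.41 in anti-VEGFA. The anti-VEGFA libraries lay above those of control and OE-MMP28 and overlapped those of anti-IL-8. Anti-VEGFA differed from OE-MMP28 by 0.50 (SE 0.24, 95% interval -0.01 to 1.01) with an adjusted p of 0.27, and from control by 0.51 (SE 0.24) with an adjusted p of 0.18. The gene overlaps UFSP2 on the opposite strand, which had 23 to 60 counts, and the library kit does not mark strand, so reads of the shared part cannot be told apart.

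BNIP3, a mitochondrial outer membrane protein that drives the removal of mitochondria in hypoxia, had lower values with both antibodies than in control. Its level was 12.2, 10.9 and 11.8 CPM in control, 11.4, 9.05 and 11.5 in OE-MMP28, 9.45, 9.24 and 8.30 in anti-IL-8 and 6.70, 10.6 and 10.8 in anti-VEGFA. Both antibody groups lay below the control libraries and overlapped OE-MMP28. Anti-IL-8 against control gave -0.37 (SE 0.18, 95% interval -0.75 to 0.01) with an adjusted p of 0.15 in edgeR. The fit of those 2 groups alone gave 0.040 for BNIP3, beside 39.8% of all genes called in that fit. BNIP3 was called there in 0 of 12 fits with 1 library left out and in 1 of 10 with another setting.

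The other three targets overlapped between all groups. P4HA1, the catalytic subunit of the collagen prolyl 4-hydroxylase, averaged 39.2 to 44.1 CPM over the groups, and its largest difference was anti-IL-8 against OE-MMP28 at -0.17 (95% interval -0.50 to 0.16). NDRG1, a stress-induced gene of the N-myc downstream regulated family, averaged 250.4 to 295 CPM, with its largest difference in the same comparison at 0.23 (95% interval -0.08 to 0.55). CA12, a membrane carbonic anhydrase that takes part in pH control, averaged 4.71 to 5.83 CPM, and its largest difference was anti-VEGFA against control at 0.31 (95% interval -0.11 to 0.73).

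**Figure D2:**
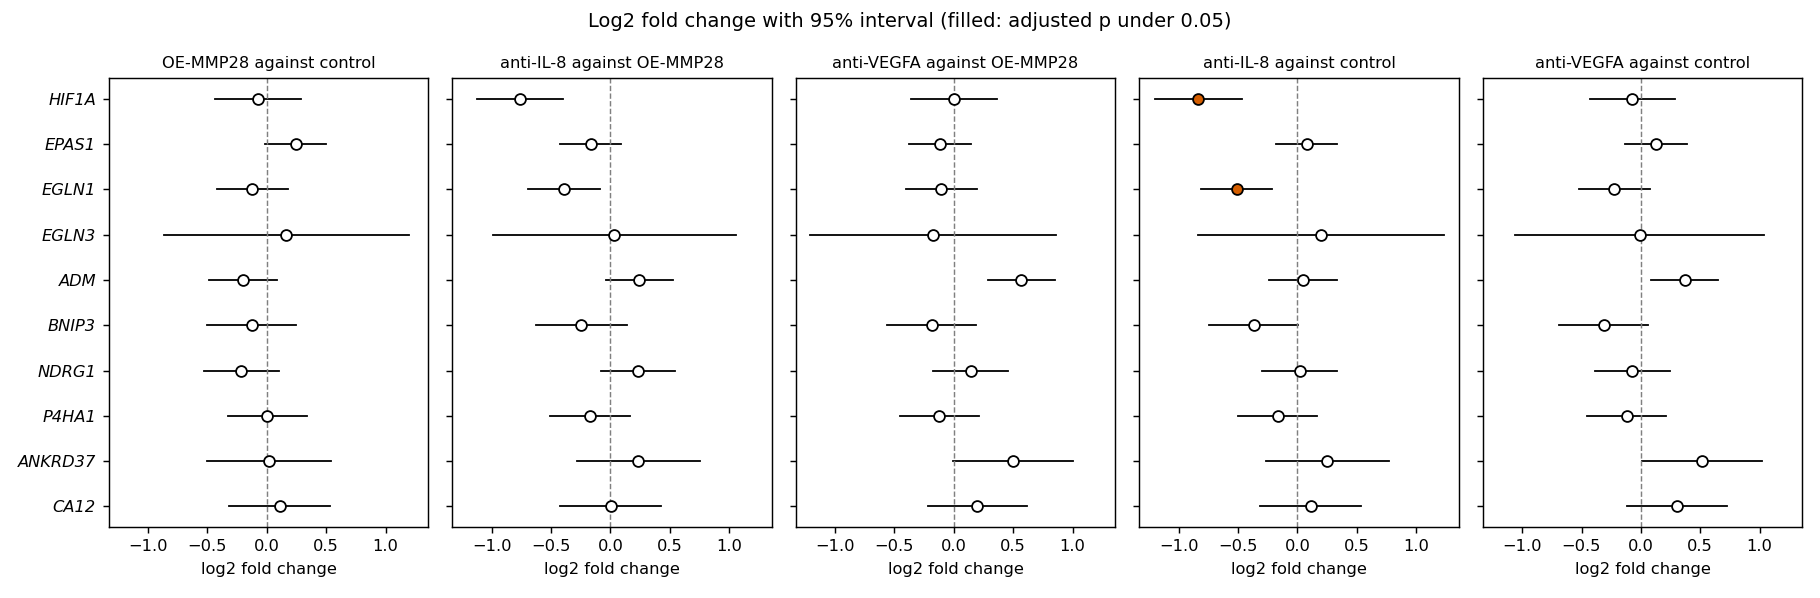
Log2 fold change (horizontal axis) of each member in 5 comparisons, with the 95% interval as a line and filled points where the adjusted p is under 0.05. The filled points are HIF1A and EGLN1, both lower in anti-IL-8 than in control.

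Counted over the list, the members did not stand out from other genes. A gene is called when its adjusted p is under 0.05. In OE-MMP28 against control 0 of 10 members were called by edgeR, DESeq2 or limma's voom, where 3.16% of all genes tested were called by edgeR, and 0 of 10 had an unadjusted p under that value, where 14.5% of all genes did. The median log2 fold change of the members was -0.03, beside 0.02 over all genes, and 5 of the 10 were higher.

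In anti-IL-8 against OE-MMP28 edgeR called 0 of 10 members and 0% of all genes, voom called 0 members and DESeq2 called 1, HIF1A, beside 14.1% of all genes in DESeq2. Without OE-MMP28 replicate 3, edgeR called 3 members (HIF1A, EGLN1 and ADM), beside 25.0% of all genes in that fit. Unadjusted, 2 of 10 passed (HIF1A and EGLN1) beside 29.3% of all genes, a share near the background. In anti-VEGFA against OE-MMP28 edgeR and voom called 0 of 10 members, beside 0.343% of all genes in edgeR, and DESeq2 called 1, ADM, beside 2.67% in DESeq2. Unadjusted, 1 of 10 passed, beside 18.8% of all genes. Between the antibodies edgeR and voom called 0 of 10, beside 0.199% of all genes in edgeR, and DESeq2 called 1, HIF1A, beside 1.57% in DESeq2. Unadjusted, 2 of 10 passed (HIF1A and ADM), beside 15.0% of all genes.

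Against control, anti-IL-8 had 2 of 10 members called (HIF1A and EGLN1, both lower), a share close to the 20.7% of all genes called, and the same 2 passed unadjusted, where 35.9% of all genes did. Anti-VEGFA against control had 0 of 10 called by edgeR, DESeq2 or voom, beside 11.0% of all genes in edgeR. Unadjusted, 2 of 10 passed (ADM and ANKRD37), beside 27.0%. The joint test of the 4 groups called 2 of 10, HIF1A with an adjusted p of 0.012 and ADM, beside 17.2% of all genes, and EGLN1 missed with an adjusted p of 0.068. EGLN1 passed edgeR's joint test without OE-MMP28 replicate 3 (adjusted p = 0.0057) or 2 (0.048) and without the filter (0.039). It also passed that of DESeq2 (adjusted p = 0.040). HIF1A lost its joint call without anti-IL-8 replicate 1 (adjusted p = 0.092) or 3 (0.069). The antibody groups share their OE-MMP28 and control libraries, so these comparisons are not independent of one another.

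**Figure D3:**
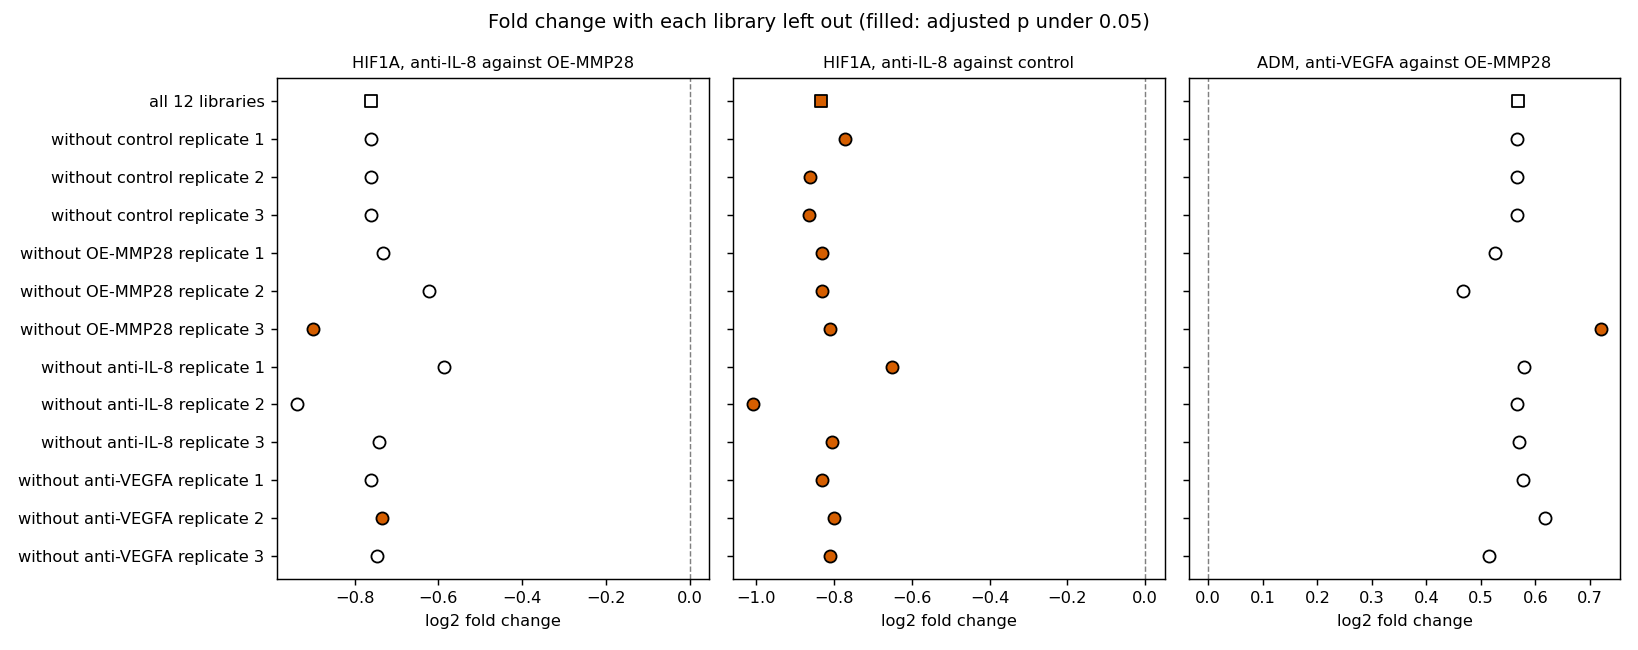
Log2 fold change (horizontal axis) of HIF1A and ADM with all 12 libraries (square) and with each library left out (circles), filled where the adjusted p is under 0.05. HIF1A against control is filled throughout, and both differences from OE-MMP28 are filled without OE-MMP28 replicate 3.

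The rest of the pathway was described through 3 lists. The first holds 13 components of the pathway, such as ARNT, VHL and the coactivators, of which 12 were tested. OE-MMP28 against control, anti-IL-8 against OE-MMP28 and anti-VEGFA against OE-MMP28 gave 0 called in edgeR, beside 3.16%, 0% and 0.343% of all genes. DESeq2 called 1 component, CUL2 in anti-IL-8 against OE-MMP28, beside 14.1% of all genes there. Unadjusted, 1, 1 and 0 passed in those 3 comparisons, beside 14.5%, 29.3% and 18.8% of all genes. Without OE-MMP28 replicate 3, edgeR called 3 of the 12 components in anti-IL-8 against OE-MMP28, beside 25.0% of all genes in that fit, and without anti-VEGFA replicate 2 it called 1, beside 7.08%. Against control, anti-IL-8 had 1 component called higher and 2 lower, beside 20.7% of all genes, and these 3 are named after their values were seen. ELOB, a subunit of the VHL ligase, rose from 83.2 to 131 CPM (adjusted p = 0.041 in edgeR). CUL2, the scaffold of the same ligase, fell from 34.7 to 25.9 CPM (adjusted p = 0.045), and EP300, a coactivator of HIF, fell from 90.1 to 55.3 CPM (adjusted p = 0.040). All 3 calls were lost without any 1 control library and without anti-IL-8 replicate 1 or 3, where adjusted p-values ran from 0.068 to 0.23. With 1 library left out ELOB was called in 5 of 12 fits and CUL2 and EP300 in 4 each. HIF3A, the third alpha subunit, had at most 3 counts in a library and was not tested. Anti-VEGFA against control had 0 components called in edgeR, beside 11.0% of all genes, and 1 in DESeq2 (CITED2), beside 13.1%. At the unadjusted threshold 3 passed, all lower, beside 27.0% of all genes in either direction.

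The second list holds 21 HIF targets in glucose metabolism, all tested. In OE-MMP28 against control 1 was called, PFKFB4, beside 3.16% of all genes. PFKFB4 encodes a kinase that sets the level of the glycolytic activator fructose 2,6-bisphosphate. It fell from 68.9 ± 0.915 to 37.3 ± 4.25 CPM (SD, n = 3), or by 0.89 on the log2 scale (SE 0.13), with an adjusted p of 1.9e-04 in edgeR. It stood at 46.0 CPM in the anti-IL-8 group and at 49.6 in the anti-VEGFA group, both still below control with adjusted p-values of 0.0050 and 0.022 in edgeR. The latter was lost without any 1 control library, without anti-VEGFA replicate 2 and with the mitochondrial share as a covariate.

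Most genes of the glucose list lay above OE-MMP28 in the anti-IL-8 group, where HIF1A lay below it. Of the 21, 17 were higher and 4 lower, with a median of 0.20 on the log2 scale beside -0.02 over all genes. In this comparison the median also differed with gene length. It was 0.11 in the length class of ADM (2718 bases) and -0.18 in that of NDRG1 (9823 bases). The glucose list was not compared with genes of like length. None passed the adjusted threshold in edgeR or voom. In DESeq2 5 did (SLC16A3, GPI, PFKP, PFKL and PDK1), beside 14.1% of all genes. Unadjusted, 8 higher and 1 lower passed, beside 29.3% of all genes. In edgeR 7 glucose genes were called without OE-MMP28 replicate 3, beside 25.0% of all genes, 2 without anti-VEGFA replicate 2, beside 7.08%, and 0 in the other 10 such fits. Without the adjustment the lower one was PDK1. This gene, for a kinase that keeps pyruvate out of the mitochondria, stood at 8.32 CPM beside 13.03 in OE-MMP28 (adjusted p = 0.063 in edgeR). Against control, anti-IL-8 had 3 called higher and 1 lower in edgeR, a share close to the 20.7% of all genes called. SLC16A3, the lactate exporter, rose from 323 to 564 CPM (adjusted p = 0.031). GPI, the glycolytic isomerase, rose from 136 to 202 CPM (adjusted p = 0.0077). ALDOA passed at an adjusted p of 0.0497, and PFKFB4 was the lower one. With 1 library left out, the glucose list had 2 to 9 genes called there. ALDOA, with at most 119 counts, shares its place with AC093512.2 on the same strand and is uncertain. Anti-VEGFA had 0 of the 21 called against OE-MMP28 by edgeR, DESeq2 or voom, beside 0.343% of all genes in edgeR. Unadjusted, 5 passed, beside 18.8% of all genes. PDK1, SLC16A3, GPI, PFKP, PFKL and ALDOA were singled out after their values were seen.

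The third list holds 35 other HIF targets, of which 33 were tested (CA9 had at most 1 count and RORA at most 11). OE-MMP28 against control called 2 higher and 2 lower, beside 3.16% of all genes, and 2 to 6 in all with 1 library left out. TMEM45A, a membrane protein, fell from 6.99 to 3.94 CPM (adjusted p = 0.026). The lipoprotein receptor VLDLR rose from 56.0 to 94.9 CPM (adjusted p = 0.0040), and STC2, a secreted glycoprotein, rose from 15.6 to 24.7 CPM (adjusted p = 0.015). VLDLR and PFKFB4 passed in all 22 refits, while STC2 passed in 17 and TMEM45A in 16. STC2 was lost without any 1 control library or OE-MMP28 replicate 1 or 3, and TMEM45A without any 1 control library or OE-MMP28 replicate 1 or 2 and with FPKM at a pseudocount of 0.1.

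STC2 stood at 32.4 CPM in the anti-IL-8 group and at 28.4 in the anti-VEGFA group, which against control gave 1.05 and 0.86 on the log2 scale with adjusted p-values of 1.4e-04 and 0.0011 in edgeR. VLDLR stood at 86.2 and 72.7 CPM, with adjusted p-values against control of 0.0079 and 0.10. TMEM45A stood at 4.38 and 4.90 CPM, with adjusted p-values against control of 0.025 and 0.10, and against OE-MMP28 neither gene passed for either antibody. Against OE-MMP28 both antibodies had 0 called on this list in edgeR and voom. DESeq2 called 6 for anti-IL-8, beside 14.1% of all genes in DESeq2, and 1 for anti-VEGFA, beside 2.67%. Unadjusted, 17 of 33 passed for anti-IL-8, beside 29.3% of all genes, and 7 for anti-VEGFA, beside 18.8%. In edgeR 11 of the list were called for anti-IL-8 without OE-MMP28 replicate 3, beside 25.0% of all genes in that fit, and 3 without anti-VEGFA replicate 2, beside 7.08%. Against control, edgeR called 5 higher and 7 lower in the anti-IL-8 group, beside 20.7% of all genes, and 6 to 16 with 1 library left out. In the anti-VEGFA group it called 3 higher and 1 lower, beside 11.0% of all genes, and 3 to 6 with 1 left out. Among the lower ones of anti-IL-8 was BNIP3L, the paralog of BNIP3 in mitochondrial removal, at 65.7 CPM beside 88.6 in control (adjusted p = 0.023). PLOD2, a collagen lysyl hydroxylase, stood at 1.37 beside 3.61 CPM (adjusted p = 0.0062). Higher in both antibody groups than in control, besides STC2, was ANKZF1, which acts in the quality control of stalled ribosomes, at 33.4 and 30.7 CPM beside 22.3 (adjusted p = 0.0067 and 0.031). BNIP3L, PLOD2 and ANKZF1 were chosen after their values were seen.

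**Figure D4:**
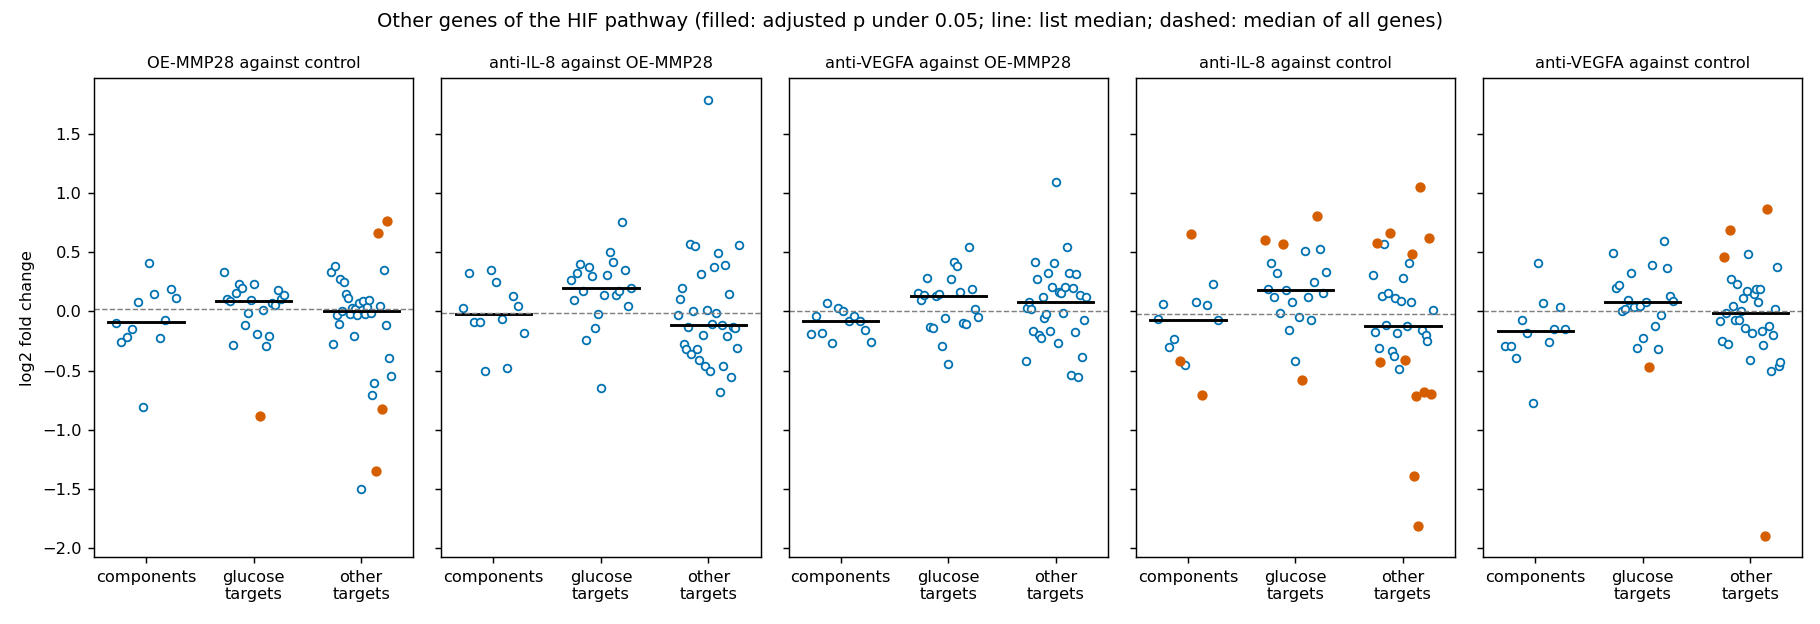
Log2 fold change (vertical axis) of the genes of the 3 HIF pathway lists in 5 comparisons, 1 point per gene, filled where the adjusted p is under 0.05, with a line at the median of the list and a dashed line at the median of all genes. The glucose list has its highest median, 0.20, in anti-IL-8 against OE-MMP28, with no point filled there.

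For each member the protein-coding gene most like it over the 12 libraries, by Pearson's r of log2 CPM among 10547 genes, is given as a description, since all points share libraries and scaling. HIF1A was most like WAC at 0.98 and EGLN1 most like CDK19 at 0.97. P4HA1 was most like CLCC1 at 0.95, ADM most like RNF122 at 0.94, NDRG1 most like ZSWIM4 at 0.93, and EPAS1 most like TNFAIP3 at 0.90. BNIP3 was nearest to PBDC1 and ANKRD37 to LTB4R, both at 0.89, CA12 to COX10 at 0.83 and the sparse EGLN3 to PIGH at 0.76. The mean of the 10 standardised members was most like PXYLP1 at 0.91, ARG2 at 0.86 and PHTF1 at 0.84. The members themselves were left out of the search.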

How the data were processed

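The deposited table gives read counts per gene, which the authors made from RNA libraries of the NEBNext Ultra kit, with HISAT2 2.0.5 and featureCounts 1.5.0-p3 in the submitters' processing notes. The strand setting of the counting is not given in the sources used here. FPKM values in the same table were computed by the authors too, and the authors' comparison columns (fold changes and p-values) were not used. Samples were grouped by their labels.

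Counts were analysed in R 4.3.3 with edgeR 4.0.16: filterByExpr left 16046 genes, libraries were scaled by TMM, and 1 quasi-likelihood fit over all 12 libraries gave 6 comparisons and a joint test, with Benjamini-Hochberg adjustment over all genes tested. Fold changes use a prior count of 2. Levels in CPM carry the TMM scaling. Intervals are 95%. The fit was tested on simulated data, drawn with the same relative spread for every gene and no deviating library. These libraries differ from that setting, so the test gives no error rate for them.

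The members and lists were chosen with earlier results of these data known. Of the lists, genes called in a comparison the study reports were named, and others are said to be chosen after their values were seen. Of the called list genes, 1 is counted but not reported here by name. Likeness used genes with a mean of at least 50 counts. Alternatives used DESeq2 1.42.0, limma 3.58.1 (voom, and FPKM with pseudocounts of 1 and 0.1), library totals, a filter dropped altogether or raised to 10 counts per library, each pair of groups alone, a block for the replicate number, the mitochondrial share, the unadjusted threshold, and each library left out. The comparison with genes of like length was added after seeing the data. Promoter sequences are RefSeq's on GRCh38.p14.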

Additional observations from a re-analysis of the deposited data

How the results depend on the processing

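Counts of members called changed mainly in the antibody comparisons. For anti-IL-8 against OE-MMP28, 0 members became 1 with DESeq2, without the filter, with the replicate block or with the mitochondrial share, 2 at the unadjusted threshold, and 0 to 3 with 1 library left out (3 without OE-MMP28 replicate 3, where 4125 genes were called in all, and 1 without anti-VEGFA replicate 2, where 1166 were). For anti-VEGFA against OE-MMP28, 0 became 1 with DESeq2, without the filter, with the mitochondrial share and at the unadjusted threshold, and 0 to 1 with 1 left out (1 without OE-MMP28 replicate 3). Anti-VEGFA against anti-IL-8 likewise went to 1 with DESeq2, without the filter or with the mitochondrial share, to 2 unadjusted, and to 0 to 1 with 1 left out (1 without OE-MMP28 replicate 2 or 3). Anti-VEGFA against control went from 0 to 1 members in the fit of 2 groups, 2 unadjusted and 0 to 1 with 1 left out (1 without OE-MMP28 replicate 2 or 3). Anti-IL-8 against control had 3 members in the fit of 2 groups, with 6039 genes called in all, and 1 to 2 with 1 left out, the joint test 0 to 3 (0 without anti-IL-8 replicate 1 or 3), and OE-MMP28 against control had 0 under every setting. Over all genes, DESeq2 called 2259 in anti-IL-8 against OE-MMP28 where edgeR called 0. The causes were not tested.

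Of 1314 refitted fold changes of the members, 66 had another sign than reported, and 1 of these had a value beyond 1 SE of 0: BNIP3 in anti-VEGFA against OE-MMP28 was -0.19 and became 0.0034 without anti-VEGFA replicate 1 (range -0.30 to 0.0034 with 1 left out). Of the pathway lists, the glucose targets called in anti-IL-8 against control ranged from 2 to 10 and the components from 0 to 5 over the alternatives, beside 4 and 3.

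Deviations of same-numbered libraries had r from -0.16 to 0.24 (4 of 18 pairs over 0.1). Those of differently numbered libraries had r from -0.32 to 0.34 (10 of 36 over 0.1). Of the 12 libraries 4 correlated best with their own number. With 3 libraries a group these values cannot settle whether the numbers pair the samples, and the labels do not say that they do. The replicate block changed the call of HIF1A in anti-IL-8 against OE-MMP28 (1 member called, and 795 genes in all) and no other member's. Depth limits EGLN3, ANKRD37, CA12 and BNIP3 most, and 3 libraries a group limit every comparison.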
